A study of Mus musculus with 8 samples.

Results

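The genes that steer naive T cells into, through and out of lymph nodes were described in CD4 T cells from mice with floxed Satb1 alleles. They are 9 genes chosen by symbol (Ccr7, Cxcr4, S1pr1, S1pr4, Gpr183, Cd44, Itgal, Itga4 and Itgb7) from the 16418 genes of the deposited normalized expression table, and all 9 passed the filter on low counts, which kept 11772 genes for testing. Poly(A) RNA was sequenced from sorted naive CD3+CD4+CD25- T cells with low or no CD44. The KO group is 4 libraries (Sample_2907_KO, Sample_2908_KO, Sample_2909_KO and Sample_2910_KO) from tamoxifen-treated mice of genotype Satb1fl/fl x CD4-CreERT2wt/+. The WT group is 4 libraries (Sample_2911_WT, Sample_2913_WT, Sample_2914_WT and Sample_2915_WT) from mice of that same genotype without tamoxifen, so both groups carry the floxed alleles and the inducible Cre recombinase driven by CD4 sequences. Treatment and intended deletion coincide and cannot be told apart. The labels give the tissue as spleen and lymph node, while the extraction protocol speaks of splenic cells, so the share of cells that came from lymph node is not known. Ages are not given in the labels, nor whether each library came from its own animal. The p-values therefore measure the spread between these libraries, which may be technical.

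A naive T cell enters a lymph node from the blood through high endothelial venules. The chemokine receptor CCR7 answers to CCL19 and CCL21 on the vessel wall and in the T cell zone, and integrins, above all LFA-1, then arrest the cell. Exit runs in the other direction along sphingosine-1-phosphate (S1P), which is scarce in the tissue and plentiful in lymph and blood and is sensed by S1PR1. The surface protein CD69 binds S1PR1 and removes it from the cell surface, so that a cell with CD69 stays longer.

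Libraries held 7544075 to 9253620 counted reads in KO and 5227758 to 21998174 in WT. All 12 T cell markers had reads in these libraries, with summed levels of 5934 to 6486 CPM in KO and 6402 to 6740 CPM in WT (CPM, each library's reads scaled to a common TMM-adjusted total). Of these 12, 0 rose and 2 fell: Cd4 (log2 fold change -0.19, adjusted p = 0.0242, edgeR) and Trbc2 (-0.19, adjusted p = 0.0197, edgeR), which lost their calls in 4 and 3 of 18 alternatives. Over all tested genes 2.41% were called lower. The B cell genes Ms4a1 and Pax5 had 3 and 1 reads over the KO libraries and 0 reads each over the WT libraries. Satb1 itself averaged 909.9 ± 87.2 CPM in KO, with 1033 ± 41.4 CPM in WT (SD over 4 libraries a group). The KO libraries had 855.1, 1032, 839.6 and 913.2 CPM, in the order of their numbers, and Sample_2908_KO lay within the WT range of 987.2 to 1083 CPM. The log2 fold change of -0.18 missed the threshold (adjusted p = 0.0582, edgeR), and the labels do not give the floxed exons, so these counts do not test the deletion and KO is only the label of a group. Satb1 was called lower in 4 of 18 alternatives: without Sample_2908_KO (adjusted p = 0.00152, edgeR) and, with all 8 libraries, with limma-voom (0.0404), with library size only (0.0364) and with no count filter (0.0191). Markers of memory and effector T cells summed to 344.6 to 387.2 CPM in KO and 229.4 to 247.2 CPM in WT. Of their 8 tested genes 5 were called higher, as were 3.98% of all tested genes. For regulatory T cell markers the sums were 248.0 to 338.2 CPM in KO and 159.4 to 191.1 CPM in WT, and 3 of 9 tested genes rose: Foxp3 (mean 93.4 CPM in KO, against 8.41 CPM in WT), Tnfrsf18 and Izumo1r. Other genes of that list lay the other way: Nrp1 averaged 2.14 CPM in KO, against 4.03 CPM in WT, and was not called (adjusted p = 0.0952, edgeR), and Lrrc32 had 0 reads in KO, against 41 in WT. Without Foxp3, an alternative added after seeing the data, the list summed to 189.6 to 225.5 CPM in KO and 151.3 to 181.3 CPM in WT. The B cell list summed to 359.7 to 415.1 CPM in KO and 446.0 to 485.2 CPM in WT, nearly all of it Ighm, and the NK cell list to 56.8 to 64.5 CPM in KO and 64.8 to 76.2 CPM in WT. Of 4 tested B cell genes 1 was called lower, Ighm (log2 fold change -0.27, adjusted p = 0.00132, edgeR). Of 3 tested NK cell genes 1 was called lower, Klrd1 (-0.51, adjusted p = 0.00837, edgeR), which lost its call in 1 of 18 alternatives. In bulk RNA such a shift in cell makeup and a shift in RNA per cell cannot be told apart, and the part of either in the results below was not tested.

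Of the 9 homing genes, 2 fell in KO (Ccr7 and Cd44) and 0 rose, by edgeR's quasi-likelihood test at a Benjamini-Hochberg adjusted p under 0.05 over all 11772 genes. At an unadjusted p under 0.05 the list adds Cxcr4 and S1pr4, both with higher means in KO. The share of all tested genes under that unadjusted threshold was not computed, so this longer list has no background here. At the adjusted threshold 6.39% of all tested genes were called, 3.98% as higher and 2.41% as lower in KO. For 3 of the 9 genes (Ccr7, Cd44 and Cxcr4) no KO library lay within the WT range or the reverse, as for 11.1% of all tested genes. The median log2 fold change was 0.05 over the 9 genes and -0.00047 over all tested genes. The log2 fold changes ran from -0.34 (Cd44) to 1.08 (Cxcr4), and the other 7 lay between -0.19 and 0.16.

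**Figure D1:**
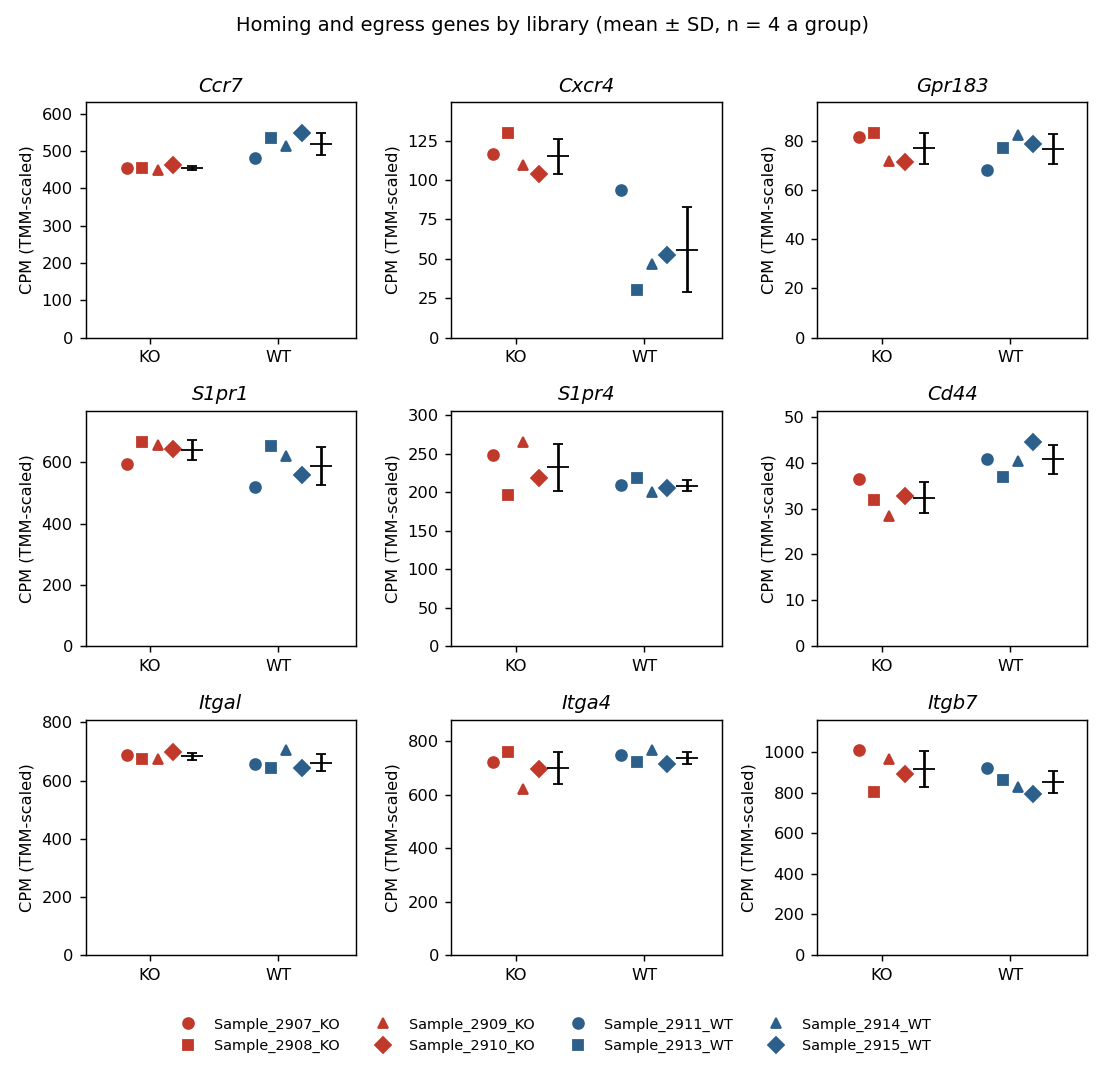
Level of each of the 9 genes in CPM (TMM-scaled, axes from 0), with 1 point a library, KO left and WT right; black bars are mean ± SD of 4 libraries. Ccr7 and Cd44 are lower in every KO library than in any WT library, Cxcr4 is higher in every KO library with Sample_2911_WT closest to them, and the groups overlap in the other 6 panels.

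Ccr7 (ENSMUSG00000037944, mm10 chromosome 11, 99144196 to 99155077, minus strand) encodes the receptor for lymph node entry and for holding cells in the T cell zone. Its level was 453.9, 454.0, 447.9 and 462.7 CPM in Sample_2907_KO, Sample_2908_KO, Sample_2909_KO and Sample_2910_KO. The WT libraries had 480.8, 535.5, 513.6 and 547.8 CPM in Sample_2911_WT, Sample_2913_WT, Sample_2914_WT and Sample_2915_WT. Every KO library lay below every WT library, and the KO libraries lay close together, with a coefficient of variation of 1.34% in KO and 5.66% in WT. Ccr7 fell to 454.6 ± 6.07 CPM in KO, against 519.4 ± 29.4 CPM in WT (SD over 4 libraries a group), a log2 fold change of -0.19 (SE 0.053, 95% interval -0.30 to -0.08, adjusted p = 0.0221, edgeR). The fall was small: only 2.53% of the called genes had a smaller absolute fold change. By exact permutation of the group labels (2-sided, 70 arrangements) p was 0.0286, and no smaller p is possible with 4 against 4. The call was lost without Sample_2907_KO (adjusted p = 0.0635, edgeR, with 4.72% of all genes called), Sample_2913_WT (0.0867, 4.78% called) or Sample_2915_WT (0.104, 4.76% called), at log2 fold changes of -0.17 to -0.19.

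Cxcr4 (ENSMUSG00000045382, chromosome 1, 128588199 to 128592293, minus strand) encodes the receptor for CXCL12, which on T cells acts in entry into lymph nodes and bone marrow. Levels were 116.9, 129.9, 109.4 and 103.9 CPM in Sample_2907_KO, Sample_2908_KO, Sample_2909_KO and Sample_2910_KO. In WT they were 93.8 CPM in Sample_2911_WT, 30.3 CPM in Sample_2913_WT, 46.8 CPM in Sample_2914_WT and 52.4 CPM in Sample_2915_WT. No KO library overlapped a WT library, but Sample_2911_WT lay nearer to the KO libraries than to the other WT libraries. The means were 115.0 ± 11.3 CPM in KO, against 55.8 ± 27.0 CPM in WT (SD over 4 libraries a group), a 2.11-fold higher level in KO (95% interval 1.26 to 3.54; log2 fold change 1.08, SE 0.308). This did not pass the threshold (adjusted p = 0.118, edgeR). The exact 2-sided permutation p was 0.0286, unadjusted. Every gene whose groups do not overlap reaches that value, as did 11.1% of all tested genes, so it adds nothing to the lack of overlap. Without Sample_2911_WT the log2 fold change was 1.37 and passed (adjusted p = 0.00291, edgeR, with 6.22% of all genes called), and with all 8 libraries it passed with DESeq2 (adjusted p = 0.0346, with 6.53% of all genes called), limma-voom (0.000324, 6.44% called), limma-trend on the deposited normalized values (0.000366, 4.14% called) and a non-robust edgeR fit (0.0012, 5.88% called).

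The WT library with the highest Cxcr4 level also had the highest summed level of myeloid markers. That sum was 40.7 to 52.6 CPM in KO, and 65.0 CPM in Sample_2911_WT, 37.8 CPM in Sample_2913_WT, 35.5 CPM in Sample_2914_WT and 46.7 CPM in Sample_2915_WT. Lyz2, the lysozyme gene of macrophages and granulocytes, was named after its values were seen. It stood at 4.64, 10.9, 12.2 and 4.55 CPM in Sample_2907_KO to Sample_2910_KO, against 25.3, 0, 0.134 and 10.7 CPM in Sample_2911_WT, Sample_2913_WT, Sample_2914_WT and Sample_2915_WT. Sample_2915_WT lay within the KO range of Lyz2 and had 52.4 CPM of Cxcr4, below all KO libraries. Without Lyz2, a calculation added after its values were seen, the other 9 markers summed to 31.8 to 42.5 CPM in KO, and to 39.8 CPM in Sample_2911_WT, 37.8 CPM in Sample_2913_WT, 35.4 CPM in Sample_2914_WT and 36.0 CPM in Sample_2915_WT. Sample_2911_WT then lay within the KO range and close to the other WT libraries. The part of myeloid RNA in the Cxcr4 level of Sample_2911_WT was not tested. Of the 10 markers on this list all had reads, and none of the 4 tested passed the threshold.

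The bases before the start of Cxcr4 are shown because Cxcr4 had the largest fold change of the 9 genes (a choice made after its values were seen), and those before Cd44 because Cd44 was called lower. RefSeq promoter windows (GRCm38.p6, the assembly behind mm10) were matched by symbol for 6 of the 9 genes (Cxcr4, S1pr4, Gpr183, Cd44, Itga4 and Itgb7), and the 250 bases before the start were searched on both strands for CACCC (bound by KLF factors), TGTTTAC (FOXO factors) and CTTTGAT (TCF and LEF factors). Capitals mark matches, and both sequences run 5′ to 3′ on the gene's strand, which is the minus strand for both (chr1:128592300-128592549 for Cxcr4 and chr2:102901666-102901915 for Cd44).
Cxcr4: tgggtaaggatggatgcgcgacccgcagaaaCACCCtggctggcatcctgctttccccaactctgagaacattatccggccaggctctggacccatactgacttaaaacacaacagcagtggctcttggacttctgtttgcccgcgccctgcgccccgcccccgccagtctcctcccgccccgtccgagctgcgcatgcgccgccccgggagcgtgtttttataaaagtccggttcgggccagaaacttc
Cd44: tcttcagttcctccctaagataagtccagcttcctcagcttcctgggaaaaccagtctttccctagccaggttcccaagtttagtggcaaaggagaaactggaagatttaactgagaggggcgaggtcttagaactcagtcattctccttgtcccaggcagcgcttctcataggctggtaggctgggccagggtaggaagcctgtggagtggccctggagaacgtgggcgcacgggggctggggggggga
Cxcr4 had 1 match to CACCC and Cd44 had 0. Itga4 and Itgb7 had 4 matches each, S1pr4 had 1 and Gpr183 had 0. CACCC is common: at least 1 match was in 52% of 32851 windows of this length. The share of windows with 4 matches was not computed. TGTTTAC (in 3.17% of windows) and CTTTGAT (in 3.21%) were in none of the 6, and no matches overlapped. A match is a string of letters and no evidence of binding.

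Gpr183 (ENSMUSG00000051212, chromosome 14, 121952551 to 121965195, minus strand) encodes the oxysterol receptor EBI2, which places lymphocytes at the edges of follicles and T cell zones. Its level was 71.2 to 83.2 CPM in KO and 68.1 to 82.6 CPM in WT, and these ranges overlapped almost wholly. The means were 77 ± 6.33 CPM in KO, against 76.7 ± 6.12 CPM in WT (SD over 4 libraries a group). The log2 fold change was -0.0034 with a 95% interval of -0.16 to 0.15 (adjusted p = 0.989, edgeR). The gene lies within Ubac2 on the opposite strand and shares 0 exon bases with it. Ubac2 had 110.6 ± 8.67 CPM in KO, against 117.4 ± 1.34 CPM in WT and was not called (adjusted p = 0.524, edgeR).

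**Figure D2:**
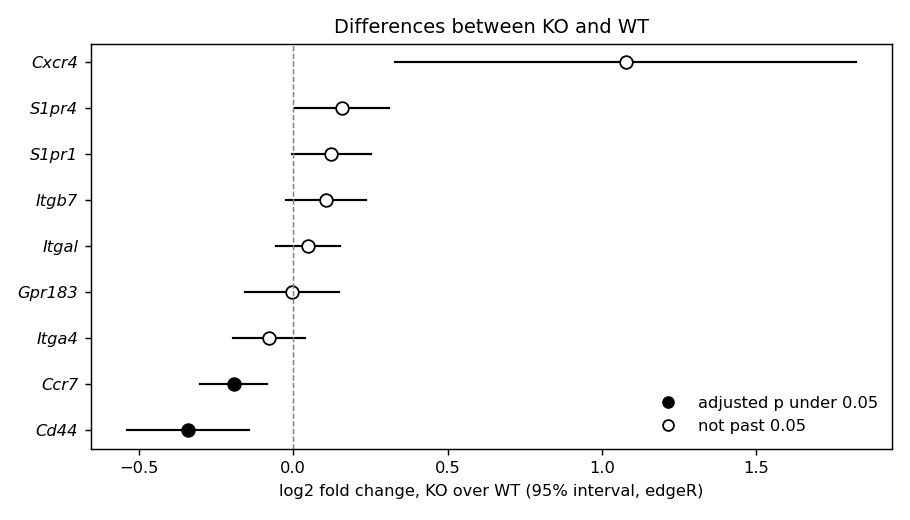
Log2 fold change of KO over WT for the 9 genes with 95% intervals from the edgeR fit on all genes; filled points have an adjusted p under 0.05. Ccr7 and Cd44 are the filled points, both below 0, and Cxcr4 has the highest value and the widest interval (0.33 to 1.82).

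S1pr1 (ENSMUSG00000045092, chromosome 3, 115710433 to 115715072, minus strand), the receptor that T cells need to leave lymph nodes, had overlapping levels in the groups and did not pass the test. The KO libraries held 593.4, 667.0, 657.0 and 641.7 CPM in the order of their sample numbers. In WT the levels were 518.6, 653.7, 620.1 and 556.9 CPM. Sample_2911_WT and Sample_2915_WT lay below all KO libraries and the other WT libraries lay among them. The means were 639.8 ± 32.6 CPM in KO, against 587.3 ± 60.9 CPM in WT (SD over 4 libraries a group), and the log2 fold change of 0.12 (95% interval -0.0050 to 0.25) did not pass (adjusted p = 0.300, edgeR). The interval holds a gain of up to 0.25 and almost no fall. Klf2, which encodes a transcription factor that drives S1pr1, had 310.2 ± 39.5 CPM in KO, against 260.6 ± 30.8 CPM in WT, with overlapping groups (log2 fold change 0.25, adjusted p = 0.270, edgeR). Klf2 passed in 2 of 18 alternatives, without Sample_2908_KO (0.34, adjusted p = 0.00218, edgeR) and with no count filter (0.25, adjusted p = 0.00132, edgeR), and its log2 fold change ranged from 0.19 to 0.34 over them.

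S1pr4 (ENSMUSG00000044199, chromosome 10, 81497747 to 81500132, minus strand) encodes another S1P receptor of blood cells. Its level was 248.4 CPM in Sample_2907_KO, 195.7 CPM in Sample_2908_KO, 265.4 CPM in Sample_2909_KO and 218.7 CPM in Sample_2910_KO. The WT libraries lay between 200.1 and 217.7 CPM. Sample_2908_KO was below all WT libraries, while the other KO libraries were above them all. The means were 232.0 ± 31.0 CPM in KO, against 208.4 ± 7.39 CPM in WT (SD over 4 libraries a group), with a log2 fold change of 0.16 (SE 0.073, 95% interval 0.01 to 0.31) that did not pass (adjusted p = 0.250, edgeR). Without Sample_2908_KO it was 0.23 and passed (adjusted p = 0.0129, edgeR, with 7.06% of all genes called). Without Sample_2909_KO, the KO library with the highest level, it was 0.08 (adjusted p = 0.595, edgeR). Itgb7 and Klf2 had their lowest KO level in Sample_2908_KO, and Satb1 its highest.

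The egress receptor was set against the genes that hold a cell in the node, within each library. S1pr1 per kilobase of exon was 0.849 to 0.954 times Ccr7 per kilobase in KO libraries, and 0.660 to 0.793 times in WT libraries. The groups did not overlap, and the mean log2 ratio differed by 0.32 (-0.13 ± 0.08 in KO and -0.45 ± 0.13 in WT, SD over 4 libraries a group). Cd69, whose product takes S1PR1 off the surface, rose to 110.3 ± 7.94 CPM in KO, against 66.2 ± 5.14 CPM in WT (log2 fold change 0.73, SE 0.072, adjusted p = 1.65e-08, edgeR), and every KO library was above every WT library. The ratio of S1pr1 to Cd69 per kilobase was 11.7 to 13.2 in KO and 16.6 to 23.6 in WT, again without overlap. S1pr1 over S1pr4 was 1.87 to 2.67 in KO and 1.94 to 2.43 in WT, and these ranges overlapped. These ratios were chosen with the behaviour of Ccr7 and Cd69 known and are descriptions without a test.

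Cd44 (ENSMUSG00000005087, chromosome 2, 102811141 to 102901665, minus strand) encodes a hyaluronan receptor that is low on naive T cells and high on antigen-experienced ones. The sort took cells with low or no CD44 protein in both groups, so the gene was part of the gate. The KO libraries had 36.5, 31.9, 28.3 and 32.7 CPM, in the order of their sample numbers, from 244 to 299 reads each. In WT they were 40.9, 36.9, 40.5 and 44.6 CPM, from 205 to 908 reads. All KO libraries lay below all WT libraries, but Sample_2907_KO and Sample_2913_WT nearly met. Cd44 fell to 32.4 ± 3.36 CPM in KO, against 40.7 ± 3.12 CPM in WT (SD over 4 libraries a group), a log2 fold change of -0.34 (SE 0.096, 95% interval -0.54 to -0.14, adjusted p = 0.0262, edgeR; exact 2-sided permutation p = 0.0286). The call was lost without Sample_2909_KO (adjusted p = 0.0956, edgeR, with 5.85% of all genes called), Sample_2910_KO (0.0538, 5.26% called), Sample_2914_WT (0.0604, 5.03% called) or Sample_2915_WT (0.122), and without Sample_2911_WT and Sample_2914_WT together (0.128, 3.94% called).

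Of the 8 tested marker genes of antigen-experienced T cells, 5 rose in KO and 0 fell. Over all tested genes 3.98% were called higher and 2.41% lower. Il2rb, the IL-2 receptor beta chain (log2 fold change 1.26, adjusted p = 8.38e-10, edgeR), Anxa2, a membrane-binding protein of effector and memory cells (1.71, adjusted p = 5.04e-08, edgeR), and Id2, an inhibitor of E proteins (0.80, adjusted p = 1.4e-08, edgeR), rose in KO. S100a10, a partner of annexin A2 (0.49, adjusted p = 1.96e-06, edgeR), and Ly6c2 (2.33-fold, adjusted p = 0.019, edgeR) rose as well; Ly6c2 lost its call in 6 of 18 alternatives. Of the 14 genes on that marker list, 6 had too few reads to be tested, among them Ccl5, Tbx21 and Cxcr3. Cxcr3 lay the other way, with 7 reads in KO and 32 in WT.

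**Figure D3:**
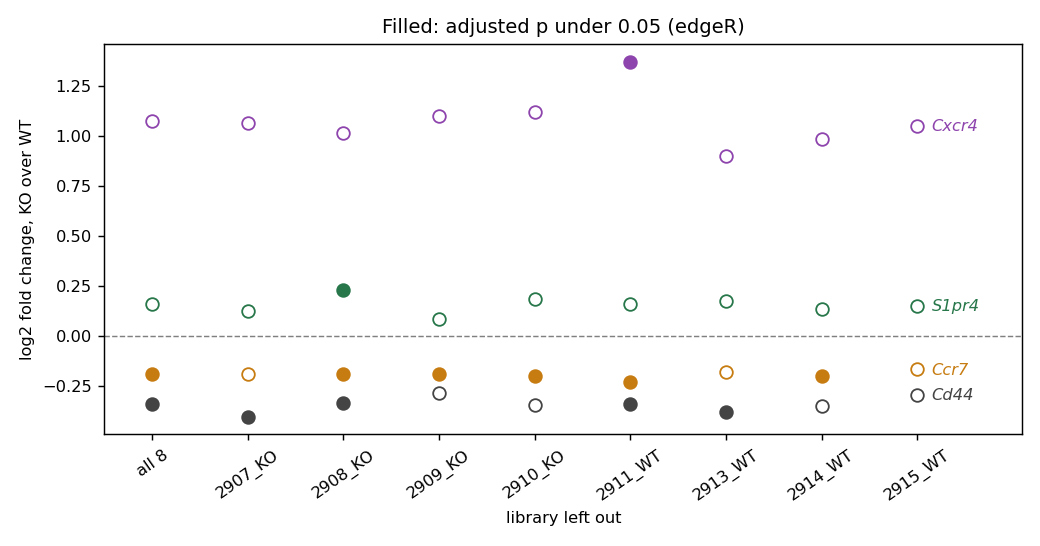
Log2 fold change of KO over WT for Cxcr4, S1pr4, Ccr7 and Cd44 in the edgeR fit on all 8 libraries and with each library left out; filled points have an adjusted p under 0.05. Cxcr4 passes only without Sample_2911_WT (1.37) and S1pr4 only without Sample_2908_KO (0.23), while Ccr7 loses its call without 3 libraries and Cd44 without 4.

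The 3 integrin chains did not pass the threshold. Itgal (ENSMUSG00000030830, chromosome 7, 127296260 to 127335138, plus strand) encodes the alpha chain of LFA-1, which binds ICAM-1 on vessel walls. It had 674.0 to 699.2 CPM in KO and 642.2 to 703.6 CPM in WT, and the KO range lay inside the WT range. The log2 fold change was 0.05 with a 95% interval of -0.06 to 0.15 (adjusted p = 0.689, edgeR). Its partner chain gene Itgb2 had 531.9 ± 26.0 CPM in KO, against 529.5 ± 27.1 CPM in WT (log2 fold change 0.01, adjusted p = 0.973, edgeR). Per kilobase, Itgal stood at 0.576 to 0.634 times Itgb2 in KO and 0.555 to 0.602 times in WT.

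Itga4 (ENSMUSG00000027009, chromosome 2, 79255426 to 79333123, plus strand) encodes the alpha chain shared by the gut-homing integrin, with the Itgb7 product, and by VLA-4, with the Itgb1 product. The KO libraries had 720.9, 761.1, 620.6 and 698.2 CPM. In WT the levels were 749.2, 721.6, 766.0 and 717.0 CPM. Sample_2909_KO was the lowest of all 8, and the groups overlapped. The log2 fold change was -0.08 (95% interval -0.19 to 0.04, adjusted p = 0.530, edgeR). The gene shares 1124 exon bases with Cerkl on the opposite strand, and the library kit does not mark strand. Cerkl averaged 4.27 ± 1.10 CPM in KO, with 3.29 ± 0.20 CPM in WT. The effect of the shared bases on the Itga4 level was not tested.

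Itgb7 (ENSMUSG00000001281, chromosome 15, 102215995 to 102231944, minus strand) encodes the beta chain that directs T cells to MAdCAM-1 on gut vessels. Levels were 1009, 803.3, 965.2 and 894.4 CPM in KO and 922.9, 865.1, 830.6 and 794.2 CPM in WT. Sample_2907_KO and Sample_2909_KO were above all WT libraries and Sample_2908_KO was below all but Sample_2915_WT. The log2 fold change was 0.11 (95% interval -0.02 to 0.24, adjusted p = 0.401, edgeR). Itga4 per kilobase was 0.127 to 0.188 times Itgb7 in KO and 0.161 to 0.183 times in WT, so the WT range lay inside the KO range. This ratio depends on the exon length used: with the median length of coding transcripts it was 0.028 to 0.042 in KO and 0.036 to 0.041 in WT. That median was only 430.5 bases for Itgb7, against 2770 bases of merged exon, so short annotated transcripts weigh on it. Against Itgb1, Itga4 per kilobase was 3.20 to 3.59 times in KO and 3.498 to 4.296 times in WT, and the groups overlapped by Sample_2911_WT. The mean log2 ratio of Itga4 to Itgb1 differed by -0.20 between the groups (1.78 ± 0.07 in KO and 1.98 ± 0.13 in WT, SD over 4 libraries a group). Itgb1 had 59.4 ± 2.65 CPM in KO, against 54.9 ± 5.70 CPM in WT (adjusted p = 0.454, edgeR).

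**Figure D4:**
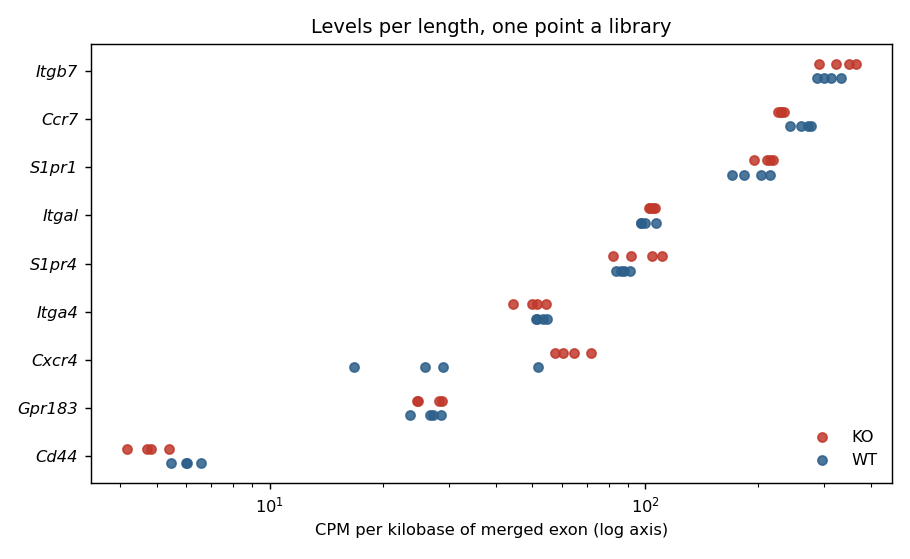
Level of each gene in CPM per kilobase of merged exon on a log axis, with 1 point a library and KO drawn above WT within each gene. Itgb7, Ccr7 and S1pr1 are the highest and Cd44 the lowest in both groups, and Cxcr4 is the gene whose place differs, above Itga4 in KO and below it in WT.

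Levels were compared between genes per kilobase of merged exon. In KO the order was Itgb7 (331.4 ± 32.5), Ccr7 (229.8 ± 3.07), S1pr1 (210.0 ± 10.7), Itgal (104.1 ± 1.81), S1pr4 (97.3 ± 13.0), Cxcr4 (63.6 ± 6.23), Itga4 (50.1 ± 4.23), Gpr183 (26.7 ± 2.19) and Cd44 (4.77 ± 0.50 CPM per kilobase, SD, n = 4). Only the neighbours Itgal and S1pr4 had overlapping ranges in KO. With the median length of coding transcripts these were apart in KO, while S1pr4 overlapped Cxcr4 and Cxcr4 overlapped Itga4. In WT it was Itgb7 (308.0 ± 19.8), Ccr7 (262.6 ± 14.9), S1pr1 (192.8 ± 19.99), Itgal (100.6 ± 4.43), S1pr4 (87.3 ± 3.10), Itga4 (52.8 ± 1.66), Cxcr4 (30.9 ± 14.9), Gpr183 (26.6 ± 2.12) and Cd44 (6.01 ± 0.46 CPM per kilobase, SD, n = 4). There Cxcr4 overlapped both of its neighbours, Itga4 and Gpr183, and all other neighbours were apart on merged exons. The coefficient of variation in CPM was widest for Cxcr4 in WT (48.4%) and for S1pr4 in KO (13.4%), and it was 1.74% for Itgal in KO.

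The genes whose profile over the 8 libraries was most like a called member were found by the root mean square difference of mean-centred log2 CPM, among 9538 genes averaging 5 CPM or more. For Ccr7 they were Cd2ap, an adaptor that binds CD2 (0.038), Iws1, a transcription elongation factor (0.040), and Nemp1, a nuclear envelope protein (0.041), where the median gene differed by 0.168. Closest to Cd44 were mt-Nd1, a mitochondrially encoded subunit of respiratory complex I (0.065), Tet1, a 5-methylcytosine dioxygenase (0.069), and Pmel (0.070), with a median of 0.241. Cxcr4, added after its values were seen, was nearest to Plin2, a lipid droplet protein (0.184), Slc9a7, a sodium-proton exchanger (0.278), and Oas2, an interferon-induced antiviral enzyme (0.301), with a median of 0.723. All of these genes were selected for a profile like that of the member, so their direction and their high and low libraries follow from the selection and are no further result.

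Other receptors and adhesion molecules of the pathway had 4 genes higher and 0 lower of 25 tested, with a median log2 fold change of 0.11. That is 16% called, where 6.39% of all tested genes were called and 3.98% were called higher. The pathway lists were chosen with earlier results of these data known, and no list was tested as a set. P2ry10, a lysophospholipid receptor gene of lymphocytes, had 180.7, 228.8, 202.1 and 205.7 CPM in KO and 115.6, 82.7, 113.4 and 98.8 CPM in WT. It rose 1.98-fold (SE 0.099 on the log2 scale, adjusted p = 3.02e-05, edgeR), with every KO library above every WT library. Integrin genes made up the rest of those called: Itgb3 (log2 fold change 0.26, adjusted p = 0.00232, edgeR), Itgav (0.35, adjusted p = 0.0221, edgeR) and Itga2 (0.86, adjusted p = 0.0317, edgeR). Itgav and Itgb3 encode the chains of the vitronectin receptor, and Itga2 a chain of a collagen receptor. Itgav and Itga2 each lost their call in 7 of 18 alternatives. Cxcr3, a chemokine receptor gene of effector cells, had too few reads to be tested (7 in KO and 32 in WT).

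Among transcription factors and surface partners of the homing receptors, 2 of 13 rose (Cd69 and Runx3) and 2 fell (Tcf7 and Bach2), with a median of 0.03. The share called was 30.8%, with 6.39% over all tested genes. Runx3, a factor of cytotoxic and Th1 cells, rose by 0.41 on the log2 scale (adjusted p = 0.00231, edgeR). Tcf7, which encodes TCF-1 of naive and memory T cells, had a log2 fold change of -0.29, a fall (adjusted p = 0.000291, edgeR), and Bach2, a repressor of effector genes, one of -0.23 (adjusted p = 0.0107, edgeR). Runx3 and Bach2 lost their calls in 1 of 18 alternatives each.

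Signalling genes downstream of chemokine and S1P receptors had 5 genes higher and 2 lower of 32 tested (median 0.02). That is 21.9% called, with 6.39% over all tested genes. The largest rise was in Rgs1, which encodes a brake on G protein signalling from chemokine receptors. It had 14.04, 12.7, 12.2 and 9.51 CPM in KO and 3.28, 5.05, 4.64 and 3.46 CPM in WT, without overlap (log2 fold change 1.55, SE 0.195, adjusted p = 1.53e-06, edgeR). Myo1g, an unconventional myosin of lymphocytes (0.44, adjusted p = 9.8e-05, edgeR), and Gna13, a G protein alpha subunit (0.21, adjusted p = 0.0152, edgeR), rose as well. So did Rgs10, another brake of the same family (0.29, adjusted p = 0.025, edgeR), and Wipf1, a partner of WASP, named after its values were seen (0.19, adjusted p = 0.0291, edgeR). Gng2, a G protein gamma subunit, fell by 0.58 (adjusted p = 0.000813, edgeR), and Grk6, a kinase that phosphorylates active receptors, by 0.21 (adjusted p = 0.0109, edgeR). Of these, Wipf1 lost its call in 10 of 18 alternatives, Rgs10 in 6, Gna13 in 3 and Grk6 in 2.

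Genes of integrin activation had 1 gene higher of 19 tested (median 0.02). That is 5.26% called, near the 6.39% of all tested genes. It was Rasgrp2, an exchange factor for Rap1 (log2 fold change 0.18, adjusted p = 0.0467, edgeR), and this call was lost in 13 of 18 alternatives. A list of glycosylation and related enzymes had 1 higher and 1 lower of 6 tested (33.3% called), with a median of -0.03. The other 5 of its 11 genes were not tested (Fut7, Fut4, Gcnt1, Chst2 and Chst4). Tpst2, a tyrosine sulphotransferase, rose (0.36, adjusted p = 0.00825, edgeR), and St8sia1, a sialyltransferase, fell by 0.32 (adjusted p = 0.00795, edgeR), and each lost its call in 1 of 18 alternatives. S1P and oxysterol metabolism had 0 of 4 tested genes past the edgeR threshold, 0 below an unadjusted 0.05 and 0 by DESeq2 (median 0.06). The other 7 of its 11 genes were not tested, among them its oxysterol genes Ch25h, Cyp7b1 and Hsd3b7.

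**Figure D5:**
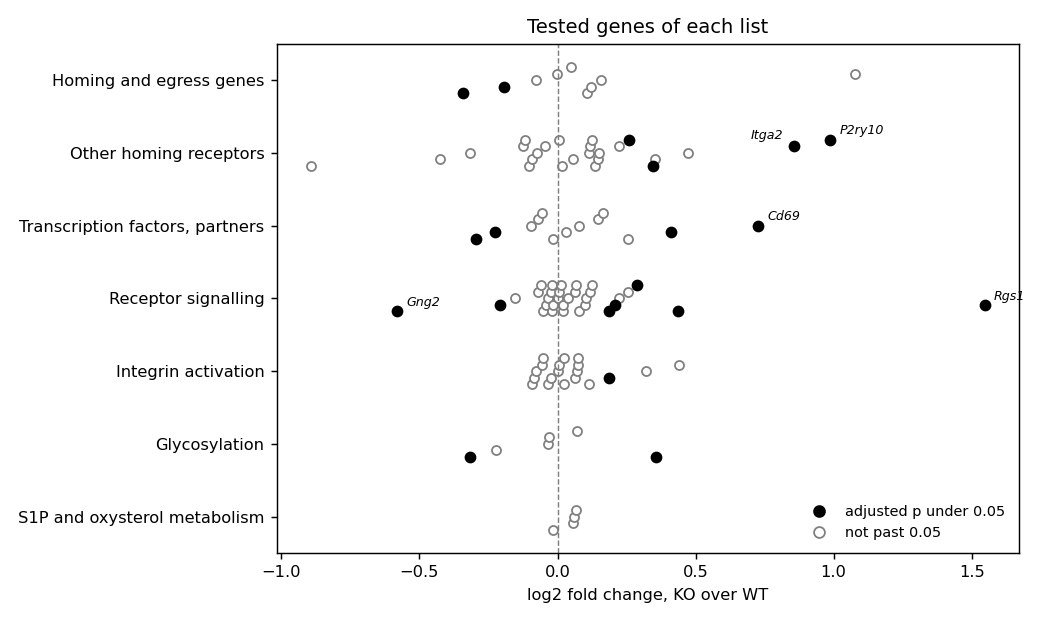
Log2 fold change of KO over WT for the tested genes of each list, with 1 point a gene; filled points have an adjusted p under 0.05 in the edgeR fit on all genes. Called genes lie on both sides of 0 among transcription factors, signalling genes and glycosylation enzymes, and to the right of 0 among other homing receptors, where P2ry10 is farthest; Rgs1 has the highest value of the genes plotted (1.55).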

How the data were processed

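RNA was measured by single-read RNA-seq in 8 libraries, 4 KO and 4 WT, grouped by their titles. Per the labels' protocols, a TruSeq v2 kit was used. Per the submitters' processing notes, mm10 was the build, and DESeq2 1.22.2, R 3.5.3, FastQC and CASAVA 1.8.2 were used; no source used here gives the aligner, read counter or annotation. The authors deposited a table of read counts for 53465 Ensembl genes, and a table of normalized signal in which each value is the count divided by 1 size factor a sample, for genes with at least 10 reads.

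The test on counts used edgeR 4.0.16 under R 4.3.3: filterByExpr, TMM, robust quasi-likelihood F test of KO against WT, Benjamini-Hochberg adjustment over 11772 genes and a threshold of 0.05. Standard errors were derived from F and the log2 fold change, with 95% intervals. CPM uses the TMM-scaled library sizes. Log2 CPM used a prior count of 2. Gene symbols came from the deposited normalized table or, for genes it lacks, from GENCODE M21, and positions and exon lengths from GENCODE M21 (53360 IDs matched, 99.8%). At depths of 5227758 to 21998174 reads, a member had 168 to 18636 reads in a library. Single genes were also compared by exact permutation of the 8 libraries. The steps were tested on simulated counts with the same dispersion for every gene and with folds larger than those of Ccr7 and Cd44. That test does not bear on the calls of these members.

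The alternatives tried were RLE size factors, DESeq2 1.42.0, library size only, voom with sample weights (limma 3.58.1), no count filter, 1 CPM in 4 libraries, limma-trend on the log2 values of that signal plus 1, a non-robust fit, thinning to 5227758 reads, and leaving out libraries. After the data were seen, 20 further draws of the thinning, marker sums without Lyz2 or Foxp3, and ratios on coding transcript length were added.

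The members, gene lists, ratios and tests were chosen with earlier results of these data known. The text names all members, called genes of each pathway list (up to 6 a list by adjusted p), partner chains, Cd69 and Klf2, genes that overlap a member, and the 3 genes nearest to each called member; marker genes, Wipf1 and Cxcr3 were named after their values were seen. A few genes of the lists are not reported here and were taken out of the list counts and sums after their values were seen.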

Additional observations from a re-analysis of the deposited data

How the results depend on the processing

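Of the 18 alternatives, Ccr7 kept its call in 15 and Cd44 in 13, always as lower in KO. Cxcr4 passed in 6, always as higher, and S1pr4 in 1. S1pr1, Gpr183, Itgal, Itga4 and Itgb7 passed in none, and Gpr183 had log2 fold changes on both sides of 0 (-0.05 to 0.04). The number of members called higher, 0 in the main test, was 1 with DESeq2, limma-voom, limma-trend on the deposited values, the non-robust fit, and without Sample_2911_WT and Sample_2914_WT together (Cxcr4 each time), and 0 to 1 when single libraries were left out. The number called lower, 2 in the main test, was 1 without that WT pair and 0 to 2 when single libraries were left out, with 0 without Sample_2915_WT. Over the alternatives 2.36% to 4.22% of all genes were called higher and 1.29% to 2.92% lower, and without the WT pair 158 genes were lower, against 284 in the main test. The cause was not tested.

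In 20 further draws of reads thinned to the shallowest library, Cd44 was called in 6 (edgeR adjusted p from 0.0236 to 0.297), Ccr7 in 18 and Cxcr4 in 0. The Cd44 call was thus lost in most of these draws, and what limits it with all reads was not tested. The difference in the log2 ratio of Itga4 to Itgb7 was -0.18 with all libraries and -0.29 without Sample_2908_KO. With the median length of coding transcripts in place of merged exons, Gpr183 ranked 7 and Cxcr4 8 in WT and no other rank changed, while the levels per length and their ratios moved as given beside them. Library size without TMM moved the median log2 fold change of all genes to -0.016. No paired analysis was possible because the groups share no sample numbers.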
